A study of Homo sapiens with 36 samples.

Results

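K562 cells, a human erythroleukemia line, were compared after 6 d and after 3 d in an incubator of 1% oxygen. The comparison held 6 of the 36 libraries of the series, 3 of 6 d in 1% oxygen and 3 of 3 d in 1% oxygen, and its members were taken by these labels alone. All cells were unmodified K562 cells grown in DMEM in wells of 6-well plates, and the labels name no added agent. The same pair of times in 5% and in 21% oxygen, 6 libraries each, was used where the change in 1% oxygen was set against them. All plates were passaged at 3 d, so the 6 d cells of every oxygen level had gone through a passage that separates them from the 3 d cells, and time and passage cannot be told apart within an oxygen level. Cell density at harvest and the order of harvest and passage at 3 d were not given in the sources used here. Each oxygen level had its own incubator, so the oxygen level and the incubator cannot be told apart either. The labels number the 3 libraries of a group as replicates without saying whether they came from separate cultures, so p-values here reflect the spread of these libraries and nothing more, and that spread may be technical.

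Expression was measured by RNA sequencing of polyA-selected RNA and is given as FPKM, fragments per kilobase of transcript scaled to the library's mapped fragments. The values were deposited by the authors, and no read counts were used here. A gene was tested if its mean over the 6 libraries reached 1 FPKM, which held for 10984 of 21950 genes. Differences are on the scale of log2(FPKM + 1), 6 d minus 3 d, so a positive value means a higher level at 6 d, and this scale understates the change of weakly expressed genes.

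K562 cells resemble an early red cell precursor. They make embryonic and fetal globins at a low level and raise them, with the enzymes of heme synthesis, when they are driven further along the red cell path, a program run by the transcription factors GATA1, TAL1 and KLF1. Low oxygen stabilizes the alpha subunits of the hypoxia-inducible factors (HIF), which bind the hypoxia response element and switch on genes of glycolysis, angiogenesis and mitophagy. The unfolded protein response raises chaperones of the endoplasmic reticulum when folding is impaired, and the ATF4 pathway raises amino acid supply genes when amino acids are short.

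Promoters of 3 genes among those with the largest changes are shown because each holds a motif named for a factor of that background. They were read from RefSeq on GRCh38.p14 and run from 250 bases before to 50 bases after the annotated start, 5′ to 3′ on the gene's own strand. Capitals mark the match to the motif on either strand. ALAS2, whose product makes the first intermediate of heme in red cells, lies at chrX:55030928-55031227 on the minus strand, and its capitals mark a GATA motif (AGATAA or TGATAA, here in reverse). ANGPTL4, a secreted inhibitor of lipoprotein lipase, lies at chr19:8363905-8364204 on the plus strand. TIMP1, an inhibitor of matrix metalloproteinases, lies at chrX:47582186-47582485 on the plus strand. In these 2 the capitals mark the core of the hypoxia response element (ACGTG).
ALAS2: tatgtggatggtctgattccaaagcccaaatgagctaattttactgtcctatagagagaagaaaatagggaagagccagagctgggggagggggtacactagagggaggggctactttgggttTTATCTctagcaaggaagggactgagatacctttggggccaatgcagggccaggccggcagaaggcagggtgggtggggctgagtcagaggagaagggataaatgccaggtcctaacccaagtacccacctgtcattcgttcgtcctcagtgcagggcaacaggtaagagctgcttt
ANGPTL4: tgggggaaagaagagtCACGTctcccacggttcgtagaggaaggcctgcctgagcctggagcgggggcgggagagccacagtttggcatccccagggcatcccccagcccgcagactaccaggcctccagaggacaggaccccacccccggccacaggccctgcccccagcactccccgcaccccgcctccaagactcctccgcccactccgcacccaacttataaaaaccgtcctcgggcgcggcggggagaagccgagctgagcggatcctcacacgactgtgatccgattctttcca
TIMP1: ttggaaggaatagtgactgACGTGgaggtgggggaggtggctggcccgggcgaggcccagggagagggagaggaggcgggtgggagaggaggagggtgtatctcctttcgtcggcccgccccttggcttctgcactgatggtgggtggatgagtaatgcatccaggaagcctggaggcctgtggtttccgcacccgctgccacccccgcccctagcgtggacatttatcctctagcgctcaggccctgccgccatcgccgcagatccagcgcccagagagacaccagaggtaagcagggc
Of 27305 RefSeq promoters of this length, 16.6% held the GATA motif and 21.6% the ACGTG core. Among the 15 genes with the largest rises, 7 had a promoter entry, and 2 of these, HBD and ALAS2, held the GATA motif. Among the 15 genes with the largest falls, 12 had an entry, and 5 of these, ANGPTL4, CD44, TIMP1, VIM and AKAP12, held the ACGTG core. The AP-1 motif (TGACTCA, in 4.92% of all promoters) and the E-box (CACGTG, which contains the ACGTG core, in 7.43%) were searched too, and AP-1 was in HBD, ALAS2 and PAEP. The E-box, and so the ACGTG core, was also in SLC29A1 among the rises, the match of AKAP12 among the falls was an E-box too, and the GATA motif was in KRT79 among the falls. A match is a description of these letters and is no evidence that a factor bound there.

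The libraries were unequal in depth. Replicate 3 of 3 d in 1% oxygen, called the shallow library here, listed 7220 genes above 0, against 16111 to 16746 in the 6 d libraries and 18885 and 19245 in the other 3 d libraries. It also listed 429 of 3695 well expressed genes (median over all libraries above 20 FPKM) at 0, where the other 5 libraries listed between 0 and 3 of them at 0. The tests were therefore run with and without it, and a gene is said to have risen or fallen only where it passed in the same direction in both. The share of 394 olfactory receptor genes, a family expressed mainly in the nose, with a value above 0 was 37.1%, 28.4% and 23.6% in the 6 d libraries. It was 70.1% and 54.8% in the full-depth 3 d libraries, so weak signal from this family was more widespread at 3 d. In 5% oxygen this share was 56.3%, 53.8% and 48.0% at 3 d and 74.6%, 66.0% and 71.1% at 6 d. In 21% oxygen it was 38.8%, 33.8% and 38.3% at 3 d and 43.4%, 39.6% and 48.2% at 6 d. At both of these levels it was thus higher at 6 d. Its part in the falls of weak genes and in their differences between oxygen levels was not tested. The red cell identity of the line was visible in both groups. GATA1 was at 281, 292 and 301 FPKM at 6 d, against 232 and 240.2 FPKM in the full-depth libraries and 124 FPKM in the shallow library of 3 d. The neutrophil elastase gene ELANE and the platelet genes GP9 and PF4 were at 0 in all 6 libraries, and CD3E, CD79A, CD14 and CSF1R of lymphocytes and macrophages were at 0.42 FPKM or less. These genes were picked for their absence, and other markers of such cells were expressed. A mean of 1 FPKM was reached by 8 of 17 megakaryocyte and platelet genes, among them ITGA2B and ITGB3. It was also reached by 8 of 19 myeloid genes, among them LYZ and CD68, and by 1 of 9 lymphoid genes, CD3D.

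With all libraries, 5548 of 10984 genes (50.5%) differed between 6 d and 3 d in 1% oxygen at an adjusted p under 0.05 by limma with Benjamini-Hochberg adjustment. They were 3634 genes higher at 6 d (33.1%) and 1914 lower (17.4%). Without the shallow library, 5072 genes (46.2%) passed, 2534 higher and 2538 lower (23.1% each way). Genes called in the same direction in both numbered 3566 (32.5%), of which 2189 had risen (19.9%) and 1377 had fallen (12.5%), and no gene was called in opposite directions. The counts of list members below stand beside these shares and were not tested against them. The shallow library moved the balance of the calls: the median difference over all tested genes was 0.28 with it and -0.0003 without it. Rescaling each library to a fixed total (TPM) shifted that median to -0.15 without the shallow library, and 1053 genes were then higher and 1703 lower in both. The balance of rises and falls thus changed with the scaling, and a list whose direction changed with it is named as such below. A model fitted on these 6 libraries alone, whose spread includes the shallow library, called 233 genes, and on 5 libraries without it 3655.

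**Figure D1:**
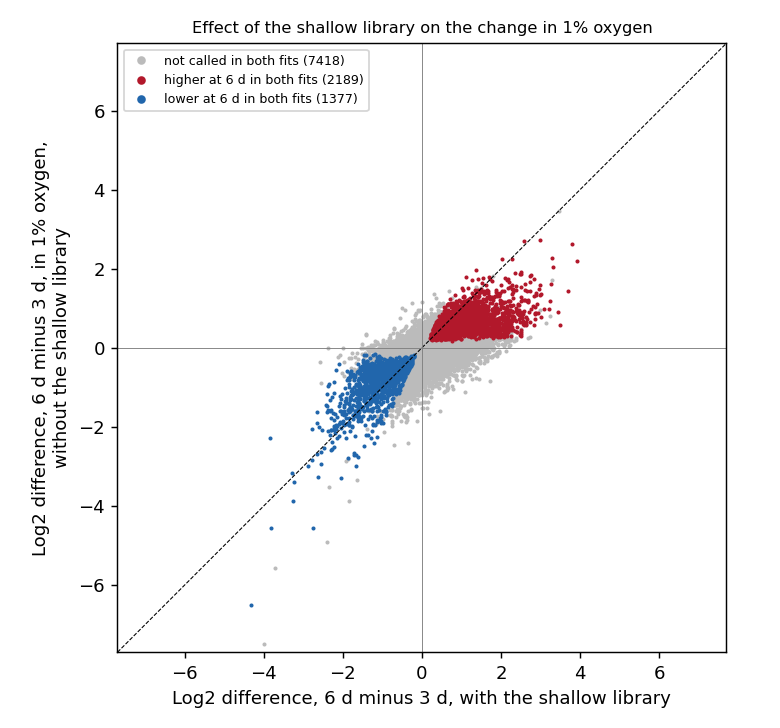
Each point is a gene, with its log2(FPKM + 1) difference, 6 d minus 3 d in 1% oxygen, estimated with the shallow library (horizontal axis) and without it (vertical axis). Red points are the 2189 genes called higher and blue points the 1377 genes called lower at 6 d in both, grey points are the other 7418 genes, and the dashed line marks equal values. The grey cloud extends to the right of the line, where the shallow library adds to the apparent rise at 6 d.

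Globins had the highest median rise of the gene lists without the shallow library. All 8 globins tested, of 9 in the list, rose, with a median log2 difference of 1.70 without and 1.41 with the shallow library. HBZ, the embryonic zeta chain, was at 19117, 16095 and 20074 FPKM in the 6 d libraries, against 2515 and 3109 FPKM in the full-depth libraries and 1550 FPKM in the shallow library of 3 d. The groups did not overlap, and the log2 difference was 2.71 ± 0.17 (SE, adjusted p = 5.21e-13) without the shallow library and 3.00 ± 0.18 (adjusted p = 1.44e-12) with it. Genes with the largest changes were named only if their full-depth libraries did not overlap, and list members by the smallest adjusted p. A lack of overlap given here or below for such genes, or for genes named after their values were seen, is thus no separate support. The share of all tested genes without overlap is not given here, so separation is not read as particular to the named genes. HBE1, the embryonic epsilon chain, was at 12195, 11802 and 13836 FPKM at 6 d, against 5435 and 5392 FPKM and, in the shallow library, 4222 FPKM at 3 d. HBG1, a fetal gamma chain, was at 2293, 2340 and 2727 FPKM at 6 d, against 963 and 906 FPKM and 823 FPKM in the shallow library at 3 d. For these 3 chains every 6 d library was above every 3 d library. HBG2, which is nearly identical to HBG1, had a log2 difference of 1.41 without and 1.37 with the shallow library, and reads may have been split between these copies in ways the files do not show. The same doubt holds for HBA1 and HBA2, the copies of the alpha chain gene, and after rescaling to TPM 7 of the 8 globins rose, HBA1 no longer passing. HBA2 was at 228, 189 and 218 FPKM at 6 d, against 46.5 and 62.1 FPKM at full depth and 187 FPKM in the shallow library at 3 d. Here the shallow library overlapped the lower end of the 6 d group, and for HBA1 it lay above it, at 119.9 FPKM against 96.9, 101 and 109.7 FPKM at 6 d. HBD, the adult delta chain, was at 64.6, 61.9 and 84.6 FPKM at 6 d, against 8.21 and 13.1 FPKM at 3 d and 0 in the shallow library. HBBP1, a globin pseudogene of the beta cluster, was at 318, 336 and 384 FPKM at 6 d, against 47.7 and 56.6 FPKM and 66.4 FPKM in the shallow library at 3 d. The summed level of the globins was 38444, 35103 and 42424 FPKM in the 6 d libraries, against 10807, 11280 and 8828 FPKM in the 3 d libraries, the last of these being the shallow one. In bulk RNA, more cells that express a gene and more RNA per cell cannot be told apart.

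**Figure D2:**
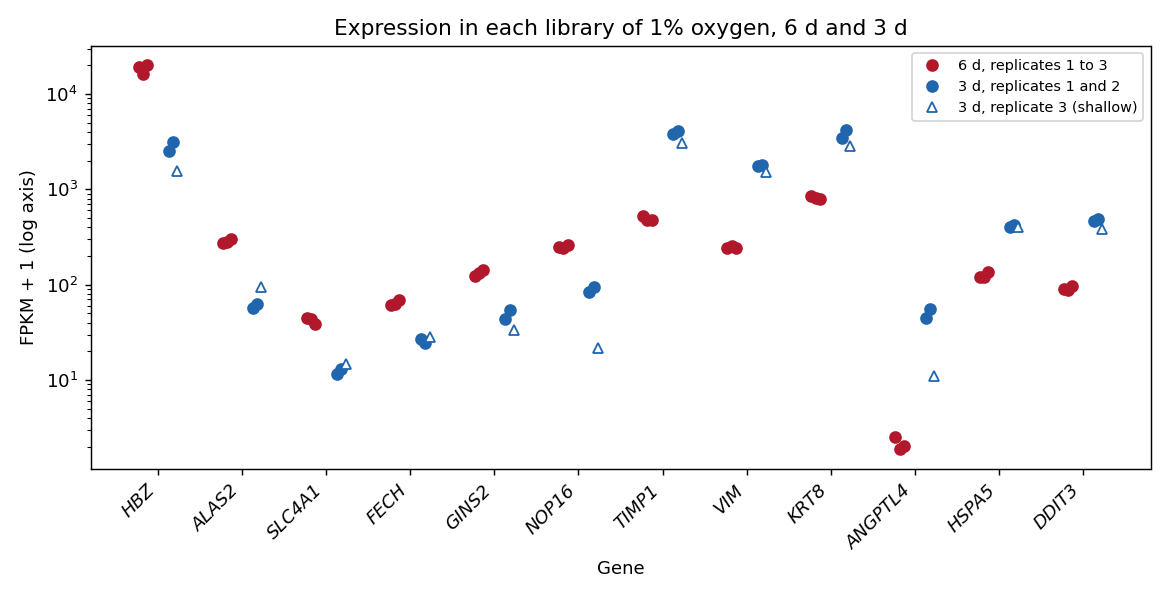
FPKM + 1 on a log axis for 12 genes in each of the 6 libraries of 1% oxygen, red circles for 6 d and blue for 3 d, with open triangles for the shallow library. The first 6 genes lie higher at 6 d, except that the shallow library brings ALAS2 nearer to the 6 d points, and the last 6 lie lower at 6 d in every library.

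Genes of heme synthesis and of the red cell membrane rose as well. Of 14 heme synthesis genes, 12 rose and none fell, with a median log2 difference of 0.99 without and 1.39 with the shallow library; ALAD and CPOX did not pass in both. ALAS2 was at 272, 277 and 302 FPKM at 6 d, against 56.2 and 61.8 FPKM at full depth and 92.9 FPKM in the shallow library at 3 d, with no overlap. Its log2 difference was 2.25 ± 0.13 (SE, adjusted p = 7.60e-14) without the shallow library and 2.03 ± 0.14 (adjusted p = 2.26e-11) with it. FECH, which inserts iron in the last step, was at 60.5, 61.99 and 68.6 FPKM at 6 d, against 25.7 and 23.6 FPKM and 27.5 FPKM in the shallow library at 3 d. The enzymes of the first and of the last step were thus both higher at 6 d. Of 22 tested genes of red cell membrane proteins, 17 rose and none fell, with a median of 0.84 without and 1.05 with the shallow library. SLC4A1, the anion exchanger band 3, was at 43.97, 42.2 and 37.9 FPKM at 6 d, against 10.6 and 12.1 FPKM and 13.6 FPKM in the shallow library at 3 d. Its groups did not overlap. AHSP, the chaperone that holds free alpha globin, was at 164, 155 and 170.0 FPKM at 6 d, against 30.7 and 39.8 FPKM in the full-depth 3 d libraries and 0 in the shallow one.

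Among the other genes with the largest rises, SLC29A1, the nucleoside transporter ENT1, was at 121, 116 and 111 FPKM at 6 d, against 27.96 and 32.1 FPKM and 8.06 FPKM in the shallow library at 3 d. FAM178B was at 351, 316 and 344 FPKM at 6 d, against 97.4 and 89.4 FPKM and 12.9 FPKM at 3 d. SMIM1, which carries the Vel blood group, was at 22.4, 18.1 and 29.2 FPKM at 6 d, against 3.08 and 10.3 FPKM and 0 in the shallow library at 3 d. FAM173A, C20orf27 and IGFLR1 completed this set, all at 0 in the shallow library and above every 3 d library at 6 d.

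Iron genes were called in both directions. Of 17 tested, 7 rose and 3 fell, beside 19.9% and 12.5% of all tested genes. The median was 0.15 without and 0.36 with the shallow library. After rescaling to TPM these medians were -0.0040 and 0.07, so the sign of the first changed. TFRC, the transferrin receptor, was at 793, 856 and 885 FPKM at 6 d, against 440.1 and 433 FPKM and 360.0 FPKM in the shallow library at 3 d, and STEAP3, the endosomal ferrireductase, differed by 1.87 without and 2.49 with the shallow library. The 3 that fell were FTL and FTH1, the ferritin chains that store iron, and NCOA4, the receptor for ferritin breakdown. FTL was at 7396, 7121 and 7549 FPKM at 6 d, against 11375 and 12313 FPKM and 9171 FPKM at 3 d. TFRC and the ferritin chains thus went in opposite directions. The call of FTH1 was lost without replicate 2 of 3 d, and that of NCOA4 without replicate 1 or 2 of either group. Of 15 red cell and blood transcription factors, 6 rose, GATA1, TAL1, KLF1, LDB1, NFE2 and IKZF1, and BACH1, a heme-sensing repressor, fell. GATA1 rose by 0.30 on the log2 scale without the shallow library and 0.61 with it. KLF1 varied widely within the groups, at 133, 77.8 and 19.3 FPKM at 6 d, against 4.27 and 28.9 FPKM and 11.2 FPKM at 3 d, and the groups overlapped. Its call was lost when replicate 1 of 3 d was left out, as was that of GATA1, which also did not pass after rescaling to TPM or quantile normalization. TAL1 and LDB1 lost their calls after rescaling to TPM, TAL1 also with array weights and with the replicate number as a block and LDB1 under quantile normalization, and both without any of several single libraries: replicate 2 of 3 d or replicate 1, 2 or 3 of 6 d for TAL1, and replicate 1 of 3 d or replicate 1 or 2 of 6 d for LDB1.

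Genes of DNA replication and of ribosome assembly rose as groups. Of 40 S phase genes, 34 rose and none fell, with a median log2 difference of 0.80 without and 0.88 with the shallow library. GINS2, a subunit of the replicative helicase, was at 123, 132 and 140.4 FPKM at 6 d, against 42.1 and 52.8 FPKM and 32.1 FPKM in the shallow library at 3 d. CDC45, which completes that helicase, was at 327, 335 and 354 FPKM at 6 d, against 171 and 185 FPKM and 139.9 FPKM at 3 d. MCM3, of its ring, was at 122, 123 and 136 FPKM at 6 d, against 64.1 and 66.6 FPKM and 77.7 FPKM at 3 d. In all 3 the groups were separated. Of 34 genes of G2 phase and mitosis, 13 rose and none fell, with a smaller median of 0.25 without and 0.33 with the shallow library, which was 0.08 without the shallow library after rescaling to TPM. Among the G1 genes, CDK4 rose by 0.93 without and 0.73 with the shallow library, and SKP2, which targets p27 for breakdown and was listed at 0 in the shallow library, by 1.15 without and 2.68 with the shallow library. CDKN1A, the cell cycle inhibitor p21, was at 11.02, 12.3 and 12.8 FPKM at 6 d, against 43.8 and 42.6 FPKM and 50.3 FPKM in the shallow library at 3 d, and fell. MYC was at 104, 104 and 107 FPKM at 6 d, against 79.2 and 76.2 FPKM and 88.7 FPKM at 3 d, a small rise that did not pass after rescaling to TPM or quantile normalization.

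Of 35 nucleolar genes of ribosome biogenesis, 32 rose and none fell, with a median of 0.80 without and 0.87 with the shallow library. NOP16 was at 245, 242 and 263 FPKM at 6 d, against 82.5 and 92.98 FPKM and 20.5 FPKM in the shallow library at 3 d. NOLC1, a chaperone of small nucleolar particles, was at 69.4, 75.1 and 80.7 FPKM at 6 d, against 34.4 and 30.96 FPKM and 64.6 FPKM at 3 d, where the shallow library lay just below the 6 d group. The proteins of the ribosome itself moved less. Of 76 cytosolic ribosomal protein genes, 13 rose and none fell, a smaller share of rises than the 19.9% over all tested genes. Their median was 0.21 without and 0.35 with the shallow library, against -0.0003 and 0.28 over all tested genes. With the shallow library alone 37 passed as higher, without replicate 1 of 3 d only 4 rose in both, without replicate 2 of 3 d 8 and without replicate 3 of 6 d 7. After rescaling to TPM 3 rose and 1 fell, with medians of 0.04 without and 0.05 with the shallow library. Of 76 genes of the mitochondrial ribosome, 55 rose and 1, MRPS10, fell (a call lost without replicate 2 of 3 d or replicate 1 of 6 d), with a median of 0.53 without and 0.84 with the shallow library. MRPS34, one of its small subunit proteins, was at 223, 206 and 221 FPKM at 6 d, against 92.2 and 108 FPKM and 19.5 FPKM at 3 d.

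Among nuclear genes of respiration, those called in both were all higher at 6 d as deposited. Of 41 genes of complex I and its assembly, 20 rose and none fell, with a median of 0.49 without and 0.60 with the shallow library, and without replicate 1 of 3 d 13 rose. Of 39 genes of complexes II to V, 16 rose and none fell (median 0.39 without and 0.62 with the shallow library), and of 23 genes of pyruvate entry and the TCA cycle, 14 rose and none fell (median 0.35 without and 0.67 with the shallow library). NDUFV1, a catalytic subunit of complex I, was at 163, 161 and 167 FPKM at 6 d, against 90.97 and 108 FPKM and 33.9 FPKM in the shallow library at 3 d. MDH2, mitochondrial malate dehydrogenase, was at 634, 625 and 670.2 FPKM at 6 d, against 396 and 430.2 FPKM and 329 FPKM at 3 d. After rescaling to TPM, 13, 10 and 8 genes of these 3 lists rose in place of 20, 16 and 14, and 1 of the last list fell. Of 23 cytosolic heat shock chaperones, 18 rose and none fell, with a median of 0.61 without and 0.81 with the shallow library. HSPA8, the constitutive HSP70, was at 2607, 2747 and 2919 FPKM at 6 d, against 1364 and 1411 FPKM and 982 FPKM at 3 d. Of 31 proteasome subunits, 24 rose and none fell, with a median of 0.34 without and 0.55 with the shallow library, and after rescaling to TPM 10 rose.

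Genes of secreted, surface and cytoskeletal proteins were among the largest falls. TIMP1 was at 522, 474 and 479 FPKM at 6 d, against 3775 and 4056 FPKM at full depth and 3090 FPKM in the shallow library at 3 d, with no overlap. Its log2 difference was -2.99 ± 0.14 (SE, adjusted p = 6.06e-16) without the shallow library and -2.88 ± 0.13 (adjusted p = 4.16e-15) with it. VIM, the intermediate filament vimentin, was at 241, 251 and 242 FPKM at 6 d, against 1735 and 1787 FPKM and 1535 FPKM at 3 d. Both were abundant transcripts at 3 d, and the shallow library stood with the other 3 d libraries. CD44, the hyaluronan receptor, was at 2.497, 2.25 and 1.73 FPKM at 6 d, against 41.6 and 49.4 FPKM and 11.9 FPKM in the shallow library at 3 d. The 3 d libraries of CD44 were all above its 6 d libraries. PAEP, the secreted lipocalin glycodelin, was at 0.423, 0.715 and 1.33 FPKM at 6 d, against 37.8 and 44.8 FPKM in the full-depth 3 d libraries and 0 in the shallow one, so its log2 difference of -4.56 without and -2.76 with the shallow library rests on those libraries. The same held for RAMP1, S100A5 and HCST, also listed at 0 in the shallow library. PAEP reached the filter for testing only through the full-depth 3 d libraries, so its fall follows in part from the filter. PAEP, S100A5 and HCST no longer passed in both with a pseudocount of 0.1. S100A5 also lost its call without replicate 2 of 3 d, and HCST without replicate 1 or 2 of 3 d or replicate 3 of 6 d. PRF1, which encodes perforin, was at 2.45, 2.14 and 1.66 FPKM at 6 d, against 27.7 and 28.9 FPKM at full depth and 6.93 FPKM in the shallow library at 3 d.

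Genes controlled by HIF did not move as one. Of 34 classic targets outside glycolysis, 4 rose and 13 fell, beside 19.9% and 12.5% of all tested genes. The median log2 difference was -0.46 without and -0.27 with the shallow library. ANGPTL4 was at 1.54, 0.871 and 1.03 FPKM at 6 d, against 43.96 and 54.3 FPKM and 10.02 FPKM in the shallow library at 3 d, and its log2 difference was -4.55 ± 0.18 (SE, adjusted p = 3.55e-17) without the shallow library and -3.82 ± 0.33 (adjusted p = 8.23e-10) with it. VEGFA, the main angiogenic factor, was at 5.86, 5.54 and 6.29 FPKM at 6 d, against 13.8 and 12.4 FPKM and 15.2 FPKM at 3 d. BHLHE40, a transcriptional repressor, was at 88.3, 79.5 and 76.9 FPKM at 6 d, against 253 and 245 FPKM and 306 FPKM at 3 d. These 3 were lower in every 6 d library. ADM, which encodes the vasodilator adrenomedullin, was at 1.26, 1.21 and 0.485 FPKM at 6 d, against 12.5 and 16.5 FPKM and 0 in the shallow library at 3 d, and its call was lost without replicate 1 or 2 of 3 d or replicate 3 of 6 d. CA9, a carbonic anhydrase and a common hypoxia marker, was at 28.1, 20.03 and 20.9 FPKM at 6 d, against 28.3 and 35.2 FPKM and 35.2 FPKM at 3 d. Its small fall lost its call with a pseudocount of 0.1 and without replicate 2 of 3 d or replicate 2 or 3 of 6 d. The 4 that rose were BNIP3, NARF, PDK1 and FAM162A, of which PDK1 lost its call after rescaling to TPM and without replicate 1 or 2 of 3 d or replicate 3 of 6 d. BNIP3, a mitophagy receptor, was at 445, 478 and 489 FPKM at 6 d, against 236 and 264 FPKM and 190.4 FPKM at 3 d. NARF, a prelamin A binding protein, was at 814, 832 and 858 FPKM at 6 d, against 350.5 and 400.1 FPKM and 302 FPKM at 3 d. At 6 d in 21% oxygen BNIP3 averaged 70.3 ± 4.14 FPKM and BHLHE40 26.1 ± 5.86 FPKM (SD, n = 3), so both the target that rose and the target that fell were above those means in every 6 d library of 1% oxygen.

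Of 22 genes of glycolysis and glucose uptake, 9 rose and 2 fell, with a median of 0.19 without and 0.37 with the shallow library. After rescaling to TPM 2 rose and 4 fell, and under quantile normalization 4 rose and 4 fell with a median of -0.0058, so no direction is given for the group. Without replicate 1 of 3 d 5 rose. SLC2A3, the glucose transporter GLUT3, was at 38.9, 40.4 and 40.9 FPKM at 6 d, against 126 and 121 FPKM and 90.4 FPKM in the shallow library at 3 d, and fell. LDHB, a lactate dehydrogenase chain, was at 1198, 1243 and 1354 FPKM at 6 d, against 666 and 687 FPKM and 467 FPKM at 3 d, and rose. Of 8 tested HIF subunits and oxygen sensors, none rose and 1, EPAS1, which encodes HIF-2 alpha, fell. EPAS1 was at 5.63, 4.41 and 4.07 FPKM at 6 d, against 15.7 and 22.1 FPKM and 16.2 FPKM at 3 d, a log2 difference of -1.79 ± 0.16 (SE, adjusted p = 6.66e-10) without the shallow library and -1.73 ± 0.15 (adjusted p = 1.43e-09) with it. HIF1A was at 11.04, 13.0 and 10.1 FPKM at 6 d, against 11.6 and 11.5 FPKM and 12.9 FPKM at 3 d, a difference of -0.03 ± 0.17 (SE) without the shallow library that did not pass.

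More stress genes of the endoplasmic reticulum and of the amino acid response fell than rose. Of 25 genes in the list of endoplasmic reticulum chaperones and unfolded protein response, none rose and 11 fell, with a median of -0.57 without and -0.36 with the shallow library. HSPA5, the chaperone BiP, was at 120.5, 119 and 136 FPKM at 6 d, against 403 and 424 FPKM and 401 FPKM in the shallow library at 3 d. HERPUD1, of the pathway that degrades misfolded proteins, was at 37.5, 37.2 and 41.2 FPKM at 6 d, against 107 and 114 FPKM and 111 FPKM at 3 d. For both genes all 3 libraries of 3 d lay above all 3 of 6 d. Of 25 genes of the ATF4 and amino acid response, 12 fell and 1, PYCR1, rose, with a median of -0.51 without and -0.36 with the shallow library. DDIT3, the stress factor CHOP, was at 88.2, 87.8 and 95.4 FPKM at 6 d, against 467 and 488 FPKM and 379.6 FPKM at 3 d, a log2 difference of -2.39 ± 0.11 (SE, adjusted p = 5.24e-16) without the shallow library and -2.28 ± 0.11 (adjusted p = 9.62e-15) with it. SLC38A2, an amino acid transporter that ATF4 raises, was at 86.2, 94.6 and 87.6 FPKM at 6 d, against 286 and 268 FPKM and 255 FPKM at 3 d.

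Of 23 immediate early genes, 13 fell, 1, ID1, rose and 9 did not pass in both, with a median of -0.83 without and -0.90 with the shallow library. KLF6 was at 12.3, 12.4 and 10.4 FPKM at 6 d, against 61.7 and 60.1 FPKM and 44.6 FPKM in the shallow library at 3 d. FOS was at 5.39, 4.66 and 4.08 FPKM at 6 d, against 21.2 and 23.5 FPKM and 32.6 FPKM at 3 d. JUN, its partner in AP-1, was at 3.41, 2.25 and 1.07 FPKM at 6 d, against 12.2 and 27.1 FPKM and 15.4 FPKM at 3 d. None of these 3 overlapped between the groups, which is no separate support for genes named by their values. Of 26 genes of cholesterol synthesis and its uptake, 9 fell and 2, PMVK and LSS, rose, with a median of -0.42 without and -0.26 with the shallow library. FDPS, which makes farnesyl diphosphate, was at 222, 213 and 233 FPKM at 6 d, against 412 and 455 FPKM and 364 FPKM at 3 d. HMGCS1, the synthase before the rate-limiting step, was at 57.5, 63.8 and 64.5 FPKM at 6 d, against 72.8 and 71.7 FPKM and 52.8 FPKM at 3 d and did not pass. PMVK and LSS lost their calls after rescaling to TPM and without replicate 1 of 3 d. Of 25 genes of mitophagy and autophagy, 8 fell and BNIP3 rose. SQSTM1, the autophagy receptor p62, was at 71.5, 70.2 and 73.5 FPKM at 6 d, against 247 and 279.7 FPKM and 154 FPKM at 3 d.

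Markers of other cell types were examined beside these results. Of 8 tested epithelial and stromal markers, 6 fell and EPCAM rose, and K562 cells are known to express several of them. KRT8, a simple epithelial keratin, was at 846, 812 and 788 FPKM at 6 d, against 3468 and 4239 FPKM and 2824 FPKM in the shallow library at 3 d. KRT18, its partner, was at 794, 781 and 799.5 FPKM at 6 d, against 3261 and 3648 FPKM and 2495 FPKM at 3 d. EPCAM was at 109.8, 102 and 91.4 FPKM at 6 d, against 53.01 and 61.8 FPKM and 31.4 FPKM at 3 d, the opposite direction. The summed level of the epithelial and stromal markers was 2358, 2288 and 2275 FPKM at 6 d, against 9209, 10569 and 7349 FPKM at 3 d. Of 8 tested megakaryocyte and platelet genes, TUBB1 rose, GP6 and CD9 fell, and 5 did not pass in both. Of 8 tested myeloid genes, IFI30 rose and CD33 and FCGR2A fell. CD9 lost its call without any one of replicates 1 to 3 of 6 d or 1 and 2 of 3 d, and CD33 without replicate 1 or 2 of 3 d or replicate 1 of 6 d. CD3D, the only tested lymphoid gene, was at 82.6, 86.7 and 109 FPKM at 6 d, against 321 and 317 FPKM and 228 FPKM at 3 d, while CD3E, its partner in the T cell receptor, was near 0 throughout. Of 9 nuclear-retained RNAs, MALAT1, NEAT1, KCNQ1OT1 and SNHG1 fell and OIP5-AS1 and PVT1 rose. KCNQ1OT1 lost its call without replicate 1 of 3 d, and OIP5-AS1 after rescaling to TPM. MALAT1 was at 187, 189 and 144 FPKM at 6 d, against 476 and 509.9 FPKM and 583 FPKM at 3 d. Whether the counting used strand is not stated, so RNAs that overlap another gene cannot be told apart from it.

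The same interval in the other incubators gave far fewer calls. In 21% oxygen, 107 genes (0.974%) differed between 6 d and 3 d with and without the shallow library in the shared model, 79 higher (0.719%) and 28 lower (0.255%), and 757 (6.89%) passed without it. In 5% oxygen, 777 genes (7.07%) did so, 525 higher (4.78%) and 252 lower (2.29%), and 2726 (24.8%) passed without it. Leaving the library out lowers the estimated spread of all groups, which raised the counts in 21% and 5% oxygen. The difference between the changes was tested directly. The change in 1% oxygen differed from that in 21% oxygen for 2809 genes (25.6%) with and without the shallow library, 1706 with a positive difference (15.5%) and 1103 with a negative one (10.0%). It differed from that in 5% oxygen for 2518 genes (22.9%), 1394 positive (12.7%) and 1124 negative (10.2%). Of the 2189 genes that rose in 1% oxygen, 1542 (70.4%) had a positive difference from 21% oxygen and 1199 (54.8%) from 5% oxygen. Of the 1377 that fell, 946 (68.7%) had a negative difference from 21% oxygen and 836 (60.7%) from 5% oxygen. Each difference contains the change in 1% oxygen by which these genes were picked. High shares in the same direction therefore follow in part from that choice and are no separate support. The splits of all called differences into positive and negative depended on the shallow library and on the scaling. Without the shallow library 1825 differences from 5% oxygen were positive and 2274 negative, and 2159 from 21% oxygen were positive and 2219 negative. After rescaling to TPM 242 differences from 5% oxygen were positive and 1905 negative, and 996 from 21% oxygen were positive and 1072 negative, with and without the shallow library.

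**Figure D3:**
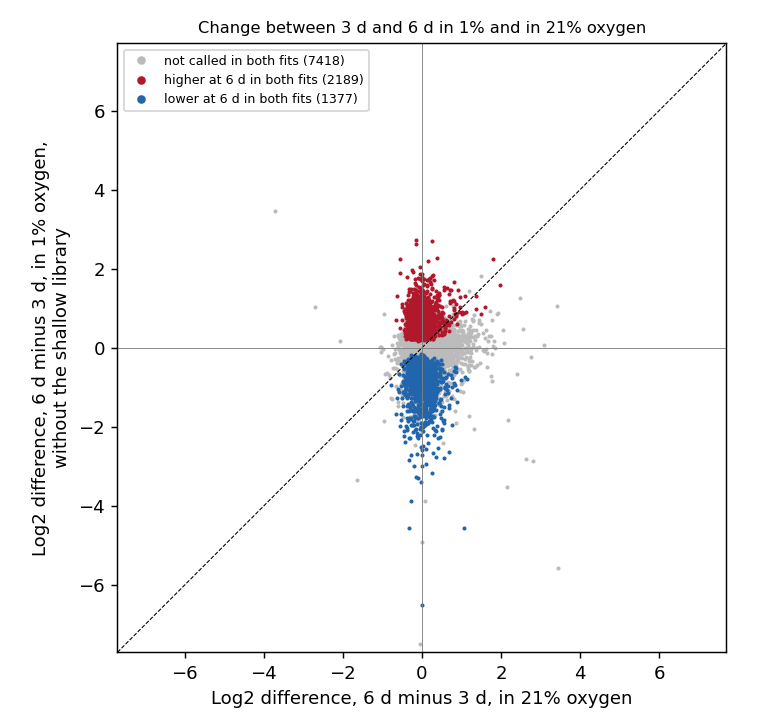
Each point is a gene, with its log2(FPKM + 1) difference, 6 d minus 3 d, in 21% oxygen (horizontal axis) and in 1% oxygen without the shallow library (vertical axis), coloured by the call in 1% oxygen in both. The dashed line marks equal changes. Called genes spread along the vertical axis, by which they were picked, with most of their horizontal values near 0.

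HBZ had a change in 1% oxygen that exceeded the change in 21% oxygen by 2.85 ± 0.23 (SE, adjusted p = 2.16e-10) without the shallow library and 3.13 ± 0.26 (adjusted p = 1.77e-09) with it. It averaged 18428 ± 2080 FPKM at 6 d in 1% oxygen, 8073 ± 428 FPKM at 6 d in 5% oxygen and 1175 ± 51.6 FPKM at 6 d in 21% oxygen (SD, n = 3). At 3 d the means, which in 1% oxygen include the shallow library, were 2391 ± 787 FPKM in 1%, 2642 ± 137 FPKM in 5% and 1294 ± 80.5 FPKM in 21% oxygen. HBZ also rose in 5% oxygen, by 1.61 on the log2 scale, and the rise in 1% oxygen exceeded that one by 1.10 without and 1.39 with the shallow library. Of the 8 globins, 7 had a positive difference from 21% oxygen and 5 from 5% oxygen. In 5% oxygen 5 globins rose between 3 d and 6 d, and in 21% oxygen none passed. ALAS2 averaged 284 ± 15.9 FPKM at 6 d in 1% oxygen, 125 ± 7.06 FPKM in 5% and 11.97 ± 0.19 FPKM in 21% oxygen, and its difference from 21% oxygen was 2.80 without and 2.59 with the shallow library. Of the 14 heme synthesis genes, 10 had a positive difference from 21% oxygen and 10 from 5% oxygen, and 3 rose in 5% oxygen.

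Several genes that fell in 1% oxygen were not called lower in 5% oxygen with and without the shallow library. CD44 averaged 2.16 ± 0.391 FPKM at 6 d in 1% oxygen, 17.6 ± 0.709 FPKM in 5% and 1.67 ± 0.315 FPKM in 21% oxygen. At 3 d it averaged 34.3 ± 19.7 FPKM in 1%, 24.7 ± 2.42 FPKM in 5% and 2.21 ± 0.388 FPKM in 21% oxygen. Its change in 1% oxygen minus that in 5% oxygen was -3.42 without and -2.81 with the shallow library, and minus that in 21% oxygen -3.61 without and -3.00 with the shallow library. KRT8 stayed high in 5% oxygen, at 2657 ± 121 FPKM at 6 d and 2527 ± 69.5 FPKM at 3 d, whereas in 1% oxygen it averaged 816 ± 29.1 FPKM at 6 d and 3510 ± 708 FPKM at 3 d. The difference of these changes was -2.30 ± 0.13 (SE, adjusted p = 3.16e-13) without the shallow library and -2.16 ± 0.15 (adjusted p = 8.94e-11) with it. Of the 8 epithelial and stromal markers, 5 had a negative difference from 5% oxygen and 5 from 21% oxygen, and 3 fell in 5% oxygen as well. Of the 23 immediate early genes, 10 had a negative difference from 5% and 9 from 21% oxygen. JUN averaged 2.24 ± 1.17 FPKM at 6 d in 1% oxygen, 10.6 ± 0.981 FPKM in 5% and 2.49 ± 0.678 FPKM in 21% oxygen. At 3 d JUN averaged 18.2 ± 7.83 FPKM in 1%, 5.002 ± 1.10 FPKM in 5% and 1.15 ± 0.306 FPKM in 21% oxygen. In 5% oxygen over the same interval JUN rose by 0.97 on the log2 scale, whereas CD44 and KRT8, with -0.46 and 0.07, did not pass with and without the shallow library. Of the list of endoplasmic reticulum chaperones and unfolded protein response, 6 had a negative difference from each of 5% and 21% oxygen, and 7 fell in 5% oxygen as well. Of the 34 classic HIF targets outside glycolysis, 9 fell and 1 rose in 5% oxygen, with a median of -0.30. Their difference from 5% oxygen was positive for 3 and negative for 6, with a median of -0.11 without and 0.25 with the shallow library. That from 21% oxygen was positive for 3 and negative for 12. Members of the ATF4 and amino acid list fell in 21% oxygen too, 7 of 25 with none higher, with a median of -0.42. The difference from 21% oxygen was positive for 5 genes and negative for 6, with a median of -0.08 without and 0.01 with the shallow library. DDIT3, one of the negative ones, differed by -1.96 without and -1.85 with the shallow library.

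**Figure D4:**
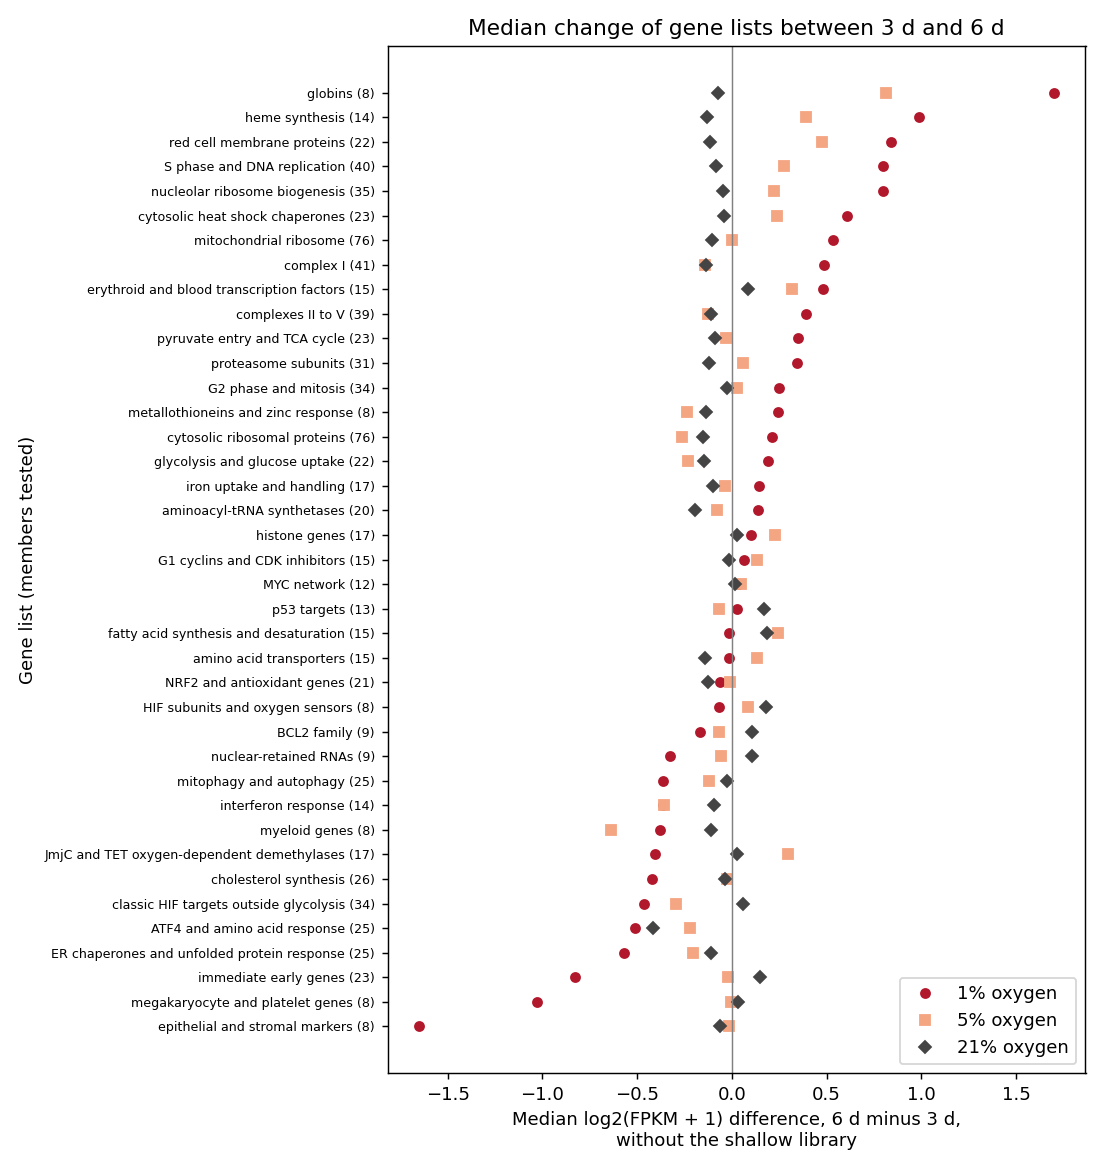
Median log2(FPKM + 1) difference, 6 d minus 3 d without the shallow library, for the 39 gene lists with 3 or more tested members (their number in brackets), as red circles for 1%, orange squares for 5% and black diamonds for 21% oxygen. The medians in 1% oxygen run from -1.65 for the epithelial and stromal markers to 1.70 for the globins, and those in 21% oxygen lie between -0.42 and 0.19.

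Genes of replication and ribosome assembly differed between the incubators as well. Of 40 S phase genes, 27 had a positive difference from 21% oxygen and 19 from 5% oxygen, and 10 rose in 5% oxygen on its own. Of 35 nucleolar genes, 26 had a positive difference from 21% and 21 from 5% oxygen. CDC45 averaged 339 ± 13.7 FPKM at 6 d in 1% oxygen, 238 ± 8.97 FPKM in 5% and 285 ± 2.14 FPKM in 21% oxygen. At 3 d it averaged 165 ± 23.2 FPKM in 1%, 222 ± 1.57 FPKM in 5% and 353 ± 15.6 FPKM in 21% oxygen. The 3 d means of 1% and 5% oxygen were thus below that of 21% oxygen, and at 6 d the mean of 1% oxygen was above both others.

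In the full time course of 1% oxygen, several of these genes stood apart at 3 d; the 3 d means here include the shallow library. TIMP1 averaged 249 ± 17.6 FPKM at 6 h, 236 ± 3.47 FPKM at 24 h, 3640 ± 497 FPKM at 3 d and 492 ± 26.0 FPKM at 6 d in 1% oxygen. HSPA5 averaged 143 ± 16.8 FPKM, 114 ± 6.09 FPKM, 409.6 ± 12.8 FPKM and 125 ± 9.42 FPKM at the same times. In both, the 3 d level stood above the earlier and the later ones. NOLC1 averaged 90.6 ± 0.977 FPKM, 71.95 ± 2.24 FPKM, 43.3 ± 18.5 FPKM and 75.1 ± 5.64 FPKM, with its lowest level at 3 d. HBZ averaged 3899 ± 280 FPKM, 5113 ± 683 FPKM, 2391 ± 787 FPKM and 18428 ± 2080 FPKM, so its 6 d level exceeded all earlier ones. VIM averaged 821 ± 33.4 FPKM, 745 ± 48.3 FPKM, 1686 ± 133 FPKM and 245 ± 5.37 FPKM, and its 6 d level was below all earlier ones. The S phase and DNA replication list had a mean log2(FPKM + 1) of 5.77, 5.70 and 5.71 in the 6 d libraries, against 4.88, 4.99 and 4.26 in the 3 d libraries, the last being the shallow one, and 5.62, 5.61 and 5.56 at 24 h. The globins had 9.68, 9.57 and 9.83 at 6 d, against 7.75, 7.96 and 7.21 at 3 d and 8.10, 8.29 and 8.18 at 24 h. No test was made between 24 h and the later times.

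**Figure D5:**
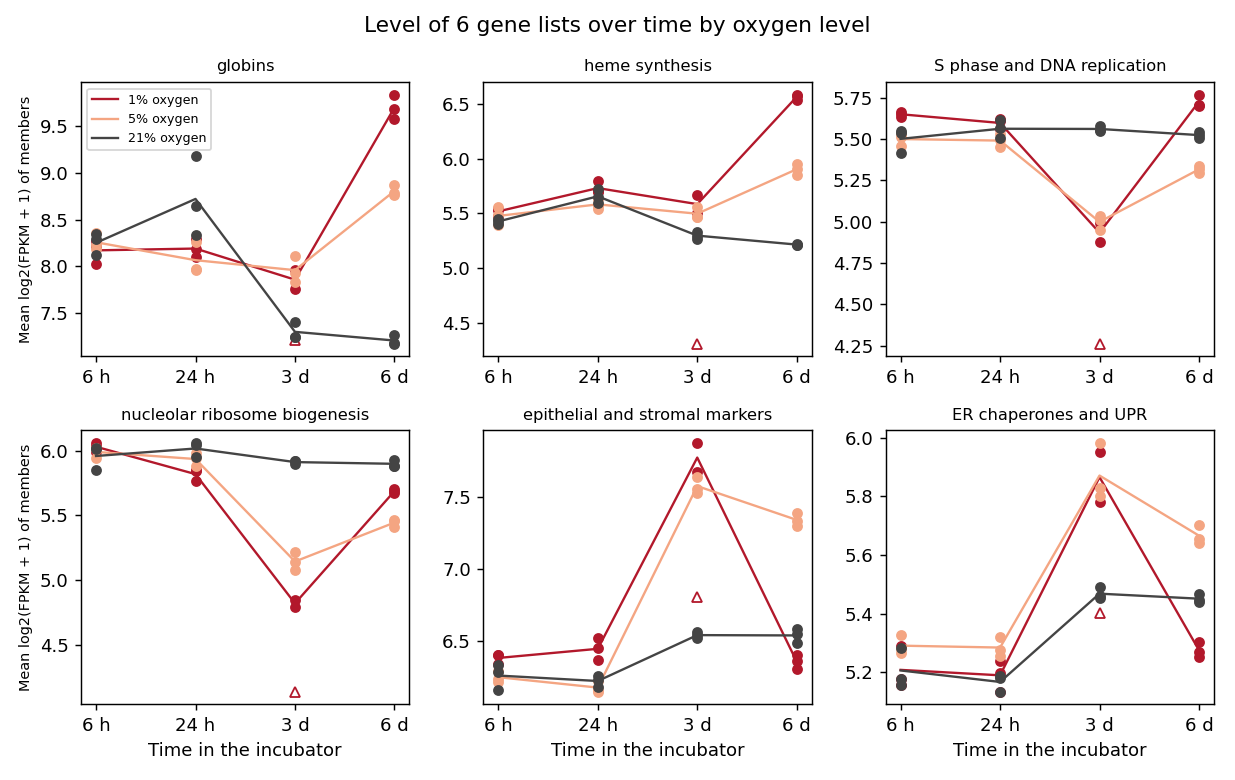
Mean log2(FPKM + 1) over the members of 6 gene lists at 6 h, 24 h, 3 d and 6 d, with points for libraries and lines through group means, in red for 1%, orange for 5% and black for 21% oxygen; the open triangle is the shallow library, left out of its group's mean. In 1% oxygen the lists of replication, ribosome biogenesis, epithelial and stromal markers and endoplasmic reticulum chaperones stand apart at 3 d and lie close to their 24 h level at 6 d, while globins and heme synthesis are at their highest at 6 d.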

How the data were processed

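RNA was sequenced from 36 libraries of K562 cells by a Smart-seq2 style protocol with polyA selection and paired short reads, per the labels' protocols. Gene-level FPKM was deposited by the authors, who ran TopHat, Cufflinks and Cuffnorm per the submitters' processing notes. Their versions, the genome build and the gene annotation were not given in the sources used here. A deposited table of transcripts was not used. No read counts were used here, so counting error is unknown, and the shallow library was judged from the genes listed above 0 and at 0. Relative depth was the inverse of the most frequent ratio to replicate 1 of 6 d, over genes under 0.1 FPKM there. In 1% oxygen it was 1.00, 0.871 and 0.758 at 6 d, against 0.660, 1.15 and 0.00680 (shallow) at 3 d. Replicate 1 of 3 d, at 0.660, listed the most genes above 0 of these. That count therefore does not rank the full-depth libraries by depth.

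The scale was log2(FPKM + 1), with a pseudocount of 1, for genes with a mean of at least 1 FPKM over the 6 libraries of 6 d and 3 d in 1% oxygen. A linear model of 12 group means with a trended prior (limma 3.58.1 under R 4.3.3) was fitted to 36 libraries (24 residual degrees of freedom) and again to 35 without the shallow library (23 degrees). Contrasts were 6 d minus 3 d within each oxygen level and the difference of that contrast between 1% and 21% or 5% oxygen, with two-sided moderated tests adjusted by Benjamini-Hochberg over 10984 genes and a threshold of 0.05. A call needed the same direction in both fits, a rule added after the data were seen. On simulated data (3 runs of 200 changed genes among 10984, for 6 d against 3 d in 1% oxygen), 2.91% to 5.06% of calls were false, and 93.1% of genes changed 2-fold were found with the shallow library and 90.5% without it; the simulation holds no library that deviates as a whole.

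The members, the 40 gene lists and the tests were chosen with earlier results of these data known. Genes were named by a rule: the 15 largest rises and falls called in both fits whose higher group averaged at least 5 FPKM and whose full-depth libraries did not overlap, up to 4 members per list with the smallest adjusted p, the 6 largest positive and negative differences from each other oxygen level, and a fixed set of 30; the text leaves out some, and a few of these are not reported here. Beyond the rule, genes such as GATA1, FOS, FTL, HBG2, BACH1 and EPCAM, further list members that rose or fell, and absent markers were named after their values were seen. The libraries were treated as unpaired. Alternatives were a pseudocount of 0.1, no filter or one at 5 FPKM, TPM, quantile normalization, array weights, a replicate block, a fit on the 6 libraries alone, a fold limit of 1.2 and leaving out each library. Promoters came from RefSeq (GRCh38.p14). Plots used matplotlib 3.10.9 (Python 3.11.15).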

Additional observations from a re-analysis of the deposited data

Results flagged for a closer look

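A gene is given here because its change from 3 d to 6 d in 1% oxygen differed from its change at another oxygen level, in the interaction test of limma with Benjamini-Hochberg adjustment, with and without the shallow library. Values are log2 differences without the shallow library, 1% oxygen minus the other level. Against 21% oxygen, the positive named differences were 2.85 for HBZ, 2.80 for ALAS2, 2.79 for HBD, 2.46 for HBBP1, 2.44 for IGFLR1 and 2.20 for HBA2. The negative ones were -5.61 for ANGPTL4, -3.61 for CD44, -3.38 for KRT79, -3.36 for KRTAP21-1 and -3.33 for JUN. HBZ, HBD, HBA2 and the pseudogene HBBP1 belong to the globin clusters and ALAS2 to heme synthesis. KRTAP21-1 was listed at 0 in all 6 d libraries and in the shallow library, so its value rests on replicates 1 and 2 of 3 d. It passed the filter for testing through those libraries alone, so its negative difference follows in part from the filter and is no separate support.

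Against 5% oxygen, the positive named differences were 2.15 for FAM178B, 2.07 for KRBOX1, 2.02 for PFDN6, 2.01 for IGFLR1, 2.01 for MACROD1 and 1.99 for FAM173A. The negative ones were -3.60 for JUN, -3.53 for PHLDA1, -3.42 for CD44, -3.18 for ERRFI1, -3.17 for ANGPTL4 and -3.16 for KRT79. JUN, PHLDA1 and ERRFI1 are immediate early or feedback genes of growth signalling. KRBOX1, PFDN6, IGFLR1, MACROD1 and FAM173A were listed at 0 in the shallow library, and with it the differences of PFDN6 and FAM173A were 3.30 and 3.02. JUN averaged 2.24 ± 1.17 FPKM at 6 d in 1% and 10.6 ± 0.981 FPKM at 6 d in 5% oxygen (SD, n = 3). PHLDA1 averaged 2.69 ± 1.63 FPKM at 6 d in 1% and 15.8 ± 0.792 FPKM at 6 d in 5% oxygen.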

How the results depend on the processing

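Genes called in both fits numbered 3566. Without a filter, 9376 genes passed without the shallow library, 2578 higher and 6798 lower at 6 d. With that library 3314 were higher and 2813 lower. A fit on the 6 libraries alone gave 233 calls with the shallow library, 233 in both, and 3655 without it, and there 141 of 222 named genes lost their call. The 222 include genes not called in both fits, such as HIF1A and HMGCS1, which had no call to lose. The share among called genes was therefore higher. A fold limit of 1.2 gave 3182 with, 2411 without and 1663 in both. For the difference from 21% oxygen, array weights gave 4474 and leaving out the shallow library 4378, in place of 2809. For the difference from 5% oxygen, leaving out the shallow library gave 4099, with TPM added 3921 and with the replicate block added 3923, in place of 2518. Leaving out each library in turn gave 4510 to 7156 calls with the shallow library, 3652 to 4751 without it, 2520 to 3275 in both, 2253 to 4378 for the difference from 21% and 1926 to 4099 for that from 5% oxygen. Where 2 libraries of a group remained or 1, the group is assumed to vary like the others. The cause of these shifts was not tested, apart from the added fold limit and the fewer samples.

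Rescaling to TPM gave 2084 higher and 2447 lower with the shallow library and 1324 and 2953 without it, in place of 3634 and 1914, and 2534 and 2538. Quantile normalization gave 2705 and 2492 with it, and 1959 higher and 1680 lower in both. No filter gave 2202 higher and 2373 lower in both, array weights 2294 and 2177. Without the shallow library the medians of 7 of 40 lists changed sign under TPM or quantile normalization. These were iron uptake, glycolysis, the MYC network, aminoacyl-tRNA synthetases, p53 targets, G1 cyclins and histones. With it 8 did so, those of aminoacyl-tRNA synthetases, p53 targets, fatty acid synthesis, myeloid genes, interferon response, mitophagy, HIF subunits and amino acid transporters. No named gene called in both changed sign without the shallow library under these alternatives, while ACSL1 (-0.75 without, 0.38 with) and BAK1 (-1.01 without, 0.65 with), not called in both, changed sign with that library.

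Replicate numbers gave no sign of pairing the libraries: the deviations of same-numbered libraries of 6 d and 3 d correlated at -0.18, -0.0099 and -0.06. The deviations at 3 d were taken from a mean that includes the shallow library, so these correlations cannot decide whether the libraries were paired. With the replicate number as a block, 5507 genes passed with the shallow library, 4928 without it, 3471 in both, 2700 for the difference from 21% and 2427 for that from 5% oxygen, TAL1 and PLK3 being named genes that lost their call, and not every library correlated best with its own number. Depth limits the shallow library most, where a value of 0 says little about the cells.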

Other observations

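Over all tested genes 19.9% rose and 12.5% fell in both fits, and the list counts in this section stand beside these shares. Antioxidant genes moved both ways. Of 21 tested NRF2 and antioxidant genes, 9 rose and 6 fell in 1% oxygen, and 2 fell without replicate 2 of 3 d. NQO1, a quinone reductase and common NRF2 target, was at 25.2, 23.6 and 27.4 FPKM at 6 d, against 56.6 and 63.7 FPKM in the full-depth libraries and 60.3 FPKM in the shallow library of 3 d. CAT, which encodes catalase, was at 84.3, 89.5 and 96.6 FPKM at 6 d, against 46.5 and 46.9 FPKM and 22.9 FPKM at 3 d, and PRDX2, the abundant red cell peroxiredoxin, at 749.5, 711 and 784 FPKM at 6 d, against 288 and 339.8 FPKM and 271 FPKM at 3 d. The peroxide-removing genes CAT and PRDX2 thus rose while NQO1 fell. Of 20 aminoacyl-tRNA synthetases, 8 rose (5 without replicate 1 of 3 d) and 3, AARS, SARS and WARS, fell, with calls lost without replicate 2 of 3 d or replicate 1 of 6 d for SARS and without replicate 1 or 2 of 3 d or replicate 2 of 6 d for WARS; FARSA was at 163, 170.2 and 173 FPKM at 6 d, against 89.1 and 105 FPKM and 48.2 FPKM at 3 d. Of 13 p53 targets, TP53I3 rose and CDKN1A, GADD45A, BTG2 and PLK3 fell. TP53I3 and GADD45A lost their calls without replicate 1 of 3 d, and PLK3 without replicate 1 or 2 of 3 d or replicate 2 or 3 of 6 d, with the replicate number as a block, with array weights, under quantile normalization, with a pseudocount of 0.1 and with no filter. Of 12 genes of the MYC network, MYC, MLX, ODC1 and CAD rose and TXNIP, a glucose-responsive inhibitor of thioredoxin, fell, a call lost without replicate 1 or 2 of 3 d. MLX lost its call after rescaling to TPM and without replicate 1 of 3 d.

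Of 15 genes of fatty acid synthesis, FADS2 rose and FASN, SCD, SCD5 and ME1 fell. The calls were lost without replicate 1 of either group for FADS2, without replicate 2 of 3 d for FASN, and without replicate 1 of 3 d or replicate 3 of 6 d for SCD5. SCD, the main desaturase, was at 230.5, 215 and 228 FPKM at 6 d, against 284 and 304 FPKM and 285 FPKM in the shallow library at 3 d. Of 15 amino acid transporters, 4 rose (2 without replicate 1 of 3 d or replicate 3 of 6 d) and 3 fell; SLC38A5, a glutamine carrier, was at 127, 131 and 139 FPKM at 6 d, against 55.9 and 63.04 FPKM and 71.4 FPKM at 3 d. Of 9 BCL2 family genes, BCL2L11 and BID, which promote cell death, rose and MCL1, which opposes it, and PMAIP1, which promotes it, fell, the call of BID being lost after rescaling to TPM. MCL1 was at 17.02, 19.6 and 16.97 FPKM at 6 d, against 41.6 and 40.1 FPKM and 84.5 FPKM at 3 d. Of 17 JmjC and TET demethylases, which use oxygen as a substrate, none rose and KDM4B, KDM5C, PHF8 and TET3 fell, KDM5C losing its call without replicate 2 of 3 d and KDM4B under quantile normalization. Of 17 histone genes, 4 rose and 1 fell, and of 14 interferon response genes, IFIT1 fell, a call lost without replicate 1 of 3 d. Neither count is read as a result about its list, given 19.9% rises and 12.5% falls over all tested genes. None of 8 genes of metallothioneins and zinc response passed in both. MT1X was at 81.3, 51.2 and 78.6 FPKM at 6 d, against 56.3 and 54.2 FPKM at 3 d and 0 in the shallow library.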
